A study of Mus musculus with 58 samples.

Results

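The genes described here were the 20 cytosolic and 15 mitochondrial aminoacyl-tRNA synthetases and 10 genes of the ATF4 stress response, 45 of the 15171 genes in the deposited table. They were chosen by gene family, because synthetases had been seen to differ between the APOE isoforms in these same mice. The E4 against E3 comparison is therefore given as a description without a test, and the tests below concern injury, Abca1 copies, their interactions and sex. All 45 genes were listed in the table, and 44 of them had a count above 0 in every mouse. Trib3 was the exception.

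RNA was sequenced from hippocampus and cortex at the injury site of 58 mice aged 3 months, of both sexes (28 female and 30 male), at day 14 after surgery. All mice carried human APOE in place of the mouse Apoe coding region by targeted replacement on a C57BL/6 background, either E3 (n = 29) or E4 (n = 29). They had either 2 functional copies of the cholesterol transporter Abca1 (Abca1+/+) or 1 (Abca1+/-). They received a controlled cortical impact to the left hemisphere (TBI) or a craniotomy alone (sham). The first genotype, E3/Abca1+/+, had 8 sham and 8 TBI mice. The next, E4/Abca1+/+, had 7 and 7. Mice with 1 copy followed: E3/Abca1+/- with 7 sham and 6 TBI mice, then E4/Abca1+/- with 7 and 8. Where 4 values are given for the genotypes, they stand in this order. Levels are given as CPM, counts scaled to the size of the library with edgeR's TMM factors.

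Aminoacyl-tRNA synthetases attach each amino acid to its tRNA, the step that supplies ribosomes with charged tRNA. Cytosolic enzymes serve cytoplasmic translation, and several of them sit in a multisynthetase complex, while the mitochondrial enzymes, also encoded in the nucleus, serve translation of the respiratory chain subunits made inside mitochondria. When amino acids run short or proteins misfold, phosphorylation of eIF2alpha slows general translation and favours translation of the transcription factor ATF4, which switches on amino acid synthesis, amino acid import and many cytosolic synthetase genes. Mutations in several synthetase genes, GARS and YARS among them, cause inherited neuropathies.

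ATF4 acts on DNA elements whose core can be written TGATGNAA, where N is any base. RefSeq promoters of the build GRCm38.p6, from 250 bases before to 50 after the transcript start, were matched to 36 of the 45 genes (39 promoters). Cars, Hars, Hars2, Lars, Nars, Pars2, Rars, Vars and Wars had no entry. On either strand, the core was found in 5 of 13 promoters of cytosolic synthetases (Aars, Gars, Iars, Tars and Yars), in 4 of 12 promoters of the ATF4 stress genes (Asns, Chac1, Slc7a11 and Trib3) and in 0 of 14 promoters of mitochondrial synthetases. Of all 32851 promoters, 1304 (3.97%) held it. The cAMP response element TGACGTCA, which does not overlap the core, was in 0 of the 39 promoters and in 588 (1.79%) of all promoters. A match in these letters does not show that a factor binds there, and no match says only that the letters are not in this window. The upstream bases of 4 of these promoters follow, chosen because their genes carry the isoform and injury differences described below. The capitals mark the core or its reverse complement.
Asns promoter (chr6:7693210-7693459, minus strand): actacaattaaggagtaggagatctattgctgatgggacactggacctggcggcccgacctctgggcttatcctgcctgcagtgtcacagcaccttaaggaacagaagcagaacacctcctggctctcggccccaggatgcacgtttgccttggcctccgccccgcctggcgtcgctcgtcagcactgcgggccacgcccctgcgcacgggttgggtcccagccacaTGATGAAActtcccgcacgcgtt
Slc7a11 promoter (chr3:50443614-50443863, minus strand): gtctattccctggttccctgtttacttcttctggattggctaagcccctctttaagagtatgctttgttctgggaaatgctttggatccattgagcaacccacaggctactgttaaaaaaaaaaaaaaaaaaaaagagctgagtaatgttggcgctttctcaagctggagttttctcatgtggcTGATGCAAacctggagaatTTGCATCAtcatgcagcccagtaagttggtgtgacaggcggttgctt
Chac1 promoter (chr2:119350992-119351241, plus strand): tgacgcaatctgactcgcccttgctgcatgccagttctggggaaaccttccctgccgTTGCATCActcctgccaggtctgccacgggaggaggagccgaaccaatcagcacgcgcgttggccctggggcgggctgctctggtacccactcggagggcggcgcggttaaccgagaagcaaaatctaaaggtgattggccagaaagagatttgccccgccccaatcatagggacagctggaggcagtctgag
Gars promoter (chr6:55037751-55038000, plus strand): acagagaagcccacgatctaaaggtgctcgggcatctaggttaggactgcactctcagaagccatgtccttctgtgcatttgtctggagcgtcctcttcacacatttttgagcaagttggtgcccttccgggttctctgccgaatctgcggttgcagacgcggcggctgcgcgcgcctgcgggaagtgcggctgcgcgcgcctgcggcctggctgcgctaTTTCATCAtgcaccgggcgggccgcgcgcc

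Library totals ran from 4421308 to 37877346 counts. Abca1+/- libraries (n = 28) were deeper than Abca1+/+ libraries (n = 30), and 21 of the 28 were deeper than every Abca1+/+ library, so copy number and depth cannot be fully told apart. Abca1 itself had 33.3 to 60.8 CPM in Abca1+/+ sham mice and 28.9 to 42.4 CPM in Abca1+/- sham mice, with overlap. Reads at mouse Apoe were at 16.4 to 28.9 CPM in all groups and do not tell the isoforms apart. In all 58 mice every gene of the neuron, astrocyte, microglia, oligodendrocyte, endothelial and hippocampal marker lists was detected. Marker scores, means of log2(CPM + 1), were used to pick 2 mice to leave out in an alternative, by a rule that always picks 2. E4/Abca1+/- TBI replicate 8 had the lowest hippocampal score, 1.66 (next 2.54). E4/Abca1+/- sham replicate 2 had the highest microglial score of the sham mice, 5.16, close to the next at 5.03.

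The cytosolic synthetases formed a steady set at moderate levels. Per kilobase of the longest coding transcript, the sham median was highest for Nars, which charges asparagine tRNA, at 90.5 CPM per kb. Gars (glycine) followed at 58.7, Hars (histidine) at 51.0 and Sars (serine) at 47.8 CPM per kb. Vars (valine) at 11.4 and Tars (threonine) at 8.35 CPM per kb were the lowest. Their levels varied little among mice. Eprs, which charges both glutamate and proline tRNA, had a ratio of 1.25 of the highest to the lowest of the 58 mice. The widest ratio was 1.59, for Cars (cysteine), over mice of both isoforms and with 1 mouse at 50.0 CPM. The within-group SD of Yars on the log2 scale was 0.06, smaller than that of all but 1.2% of the 10116 genes over 10 CPM. Within groups, the median correlation over the 190 pairs of cytosolic synthetases was 0.06 to 0.27, against 0.00 over all genes above 10 CPM. The same median was -0.06 to 0.45 for the stress genes and -0.11 to 0.19 for the mitochondrial synthetases. These values rest on 6 to 8 mice a group. The genes of a pair were measured in the same libraries, and depth differed among the mice of a group.

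Mitochondrial synthetases other than Lars2 overlapped the lower end of the cytosolic range, and 3 of them lay above Tars. Iars2 (isoleucine) had 11.4, Tars2 9.21, Aars2 8.83 and Rars2 8.19 CPM per kb in sham mice. Hars2 (7.36), Fars2 (7.16), Sars2 (5.78), Cars2 (5.29) and Yars2 (5.21) were intermediate. Nars2 (3.73), Ears2 (2.68), Pars2 (2.53) and Wars2 (2.16 CPM per kb) were low. The place of Mars2 in this order depends on the annotation: it had 1.10 CPM per kb by its GENCODE transcript of 11294 bases and 4.33 by its RefSeq gene of 2882 bases. Ears2 had as few as 16 counts in a mouse. Among the stress genes, Asns, the enzyme that makes asparagine, was highest (59.6 CPM per kb), followed by Psat1 (42.3) and Atf4 (35.7). Ddit3, which encodes CHOP, had 23.7, Phgdh 11.7, Atf5 9.02, Slc7a11 8.40, Sesn2 4.20 and Chac1 3.98 CPM per kb. Trib3, a pseudokinase induced late in the response, was near the limit of detection at 0.212 CPM per kb, with 0 to 38 counts a mouse.

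Lars2, the mitochondrial leucyl-tRNA synthetase, stood apart from the other 44 genes. It had 344 CPM per kb in sham mice, and its level ranged 7.50-fold, from 917 to 6875 CPM. Its within-group SD of 0.54 on the log2 scale exceeded that of 99.5% of the genes over 10 CPM. In E3/Abca1+/- TBI mice Lars2 ran from 1188 to 6875 CPM (median 3248), and in E4/Abca1+/- TBI mice from 1059 to 1291 CPM (median 1203). Of the 10 mice highest in Lars2, 4 were in the E3/Abca1+/- TBI group, 2 each were E3/Abca1+/+ TBI, E4/Abca1+/+ sham and E3/Abca1+/- sham, and 0 were in the other groups.

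RNAs that carry no poly(A) tail or come from ribosomal DNA moved with Lars2 across mice. They were singled out after their values were seen. Rn45s, the ribosomal RNA precursor, was at 7040 to 54799 CPM in the 10 mice highest in Lars2, and its median was 1484 CPM in the other 48. Rn18s, the RNA of the small ribosomal subunit, was at 436 to 4165 CPM in those 10 mice and at a median of 107 CPM in the others. For both, 9 of the 10 were also among the 10 highest mice. The same overlap was 8 of 10 for Rn7sk, Rmrp and Rpph1, RNAs of transcription control and RNA processing. The mouse with the most Lars2 was highest in all 5. What part of the Lars2 values this accounts for was not tested.

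**Figure D1:**
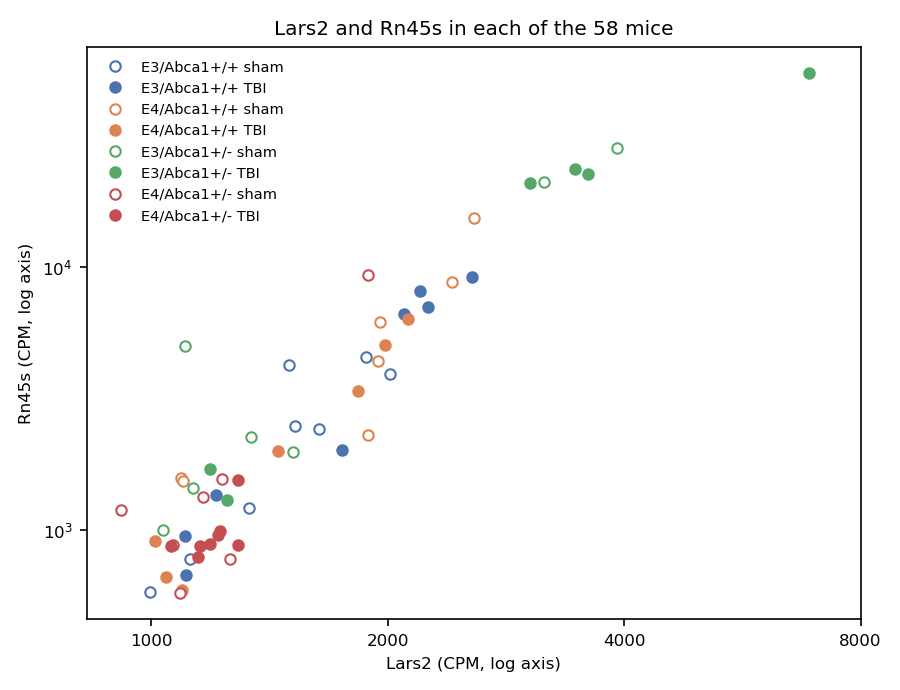
Lars2 against Rn45s in CPM, both on log axes, with a point for each of the 58 mice. Colours give the genotype, open points sham and filled points TBI; the mouse at 6875 CPM of Lars2 has 54799 CPM of Rn45s, the highest of each.

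Averaged over Abca1 and injury, E4 mice had more RNA of several stress genes and of some cytosolic synthetases than E3 mice. This is the contrast for which the genes were chosen, so it is described and not tested. The median log2 fold change was 0.20 over the stress genes, 0.07 over the cytosolic and 0.01 over the mitochondrial synthetases, and 0.00 over all genes.

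Chac1, which degrades glutathione, had the largest log2 fold change, 0.57 (standard error 0.07), the 100th highest of 15171 genes. It had 3.17 to 9.58 CPM (median 5.25) in E3 mice and 5.53 to 11.2 CPM (median 7.24) in E4 mice. Atf4, the regulator itself, followed at 0.43 (0.03), from 37.5 to 65.5 CPM (median 46.0) in E3 mice and from 51.5 to 75.6 CPM (median 65.2) in E4 mice. All 29 E4 mice were above the E3 median of both genes, although the isoforms overlapped. The highest E3 values of both genes came from the same mouse, E3/Abca1+/+ sham replicate 8. The label of this mouse begins with F, those of all other E3 mice with D and those of E4 mice with E. What the letter stands for is not given in the labels. The next highest E3 values were 6.51 CPM for Chac1 and 58.3 CPM for Atf4. Over all genes 5 (0.033%) had no overlap between the isoforms, and 0 of the 45 genes were among them.

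Other stress genes higher in E4 were Trib3 at 0.37 (standard error 0.21), Asns at 0.28 (0.03), Atf5, an ATF4-related factor of mitochondrial stress, at 0.25 (0.05) and Sesn2, an inhibitor of mTORC1, at 0.14 (0.04). Psat1, an enzyme of serine synthesis, stood at 0.05. Its partner Phgdh, the first enzyme of that pathway, stood at -0.04, Ddit3 at -0.06 and the cystine importer Slc7a11 at -0.08.

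Among the cytosolic synthetases the largest differences were those of Cars at 0.26 (0.03), Gars at 0.18, Iars (isoleucine) and Yars (tyrosine) at 0.17, and Nars at 0.15 on the log2 scale. Cars had 31.4 to 50.0 CPM (median 35.6) in E3 and 38.5 to 47.3 CPM (median 42.5) in E4 mice, with 22 of the 29 E3 mice below every E4 mouse. Iars had 58.7 to 72.8 CPM (median 67.0) in E3 and 67.2 to 82.0 CPM (median 74.0) in E4 mice. The differences of Rars (arginine, 0.12), Mars (methionine, 0.11), Sars (0.10), Farsb (0.09) and Aars (alanine, 0.08) were smaller. Those of Dars (aspartate, 0.06), Wars (tryptophan, 0.06), Lars (leucine, 0.05), Tars (0.05), Eprs (0.04), Qars (glutamine, 0.01), Vars (-0.01) and Kars (lysine, 0.00) were smaller still. Farsa (-0.06), whose product pairs with that of Farsb to charge phenylalanine tRNA, and Hars (-0.11) lay in the other direction.

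Among mitochondrial enzymes, Iars2 at 0.17 (0.02), Mars2 at 0.12, Sars2 at 0.11 and Rars2 at 0.10 were higher in E4. Ears2 (0.02), Cars2, Fars2 and Yars2 (each 0.01), Hars2 (-0.02), Wars2 (-0.04), Tars2 (-0.05), Nars2 (-0.06) and Pars2 (-0.07) were near 0. Aars2 stood at -0.14 and Lars2 at -0.50 (standard error 0.14). The Lars2 value differed widely among the 4 comparisons, from 0.30 in Abca1+/+ sham mice to -1.45 in Abca1+/- TBI mice, and the median of Rn45s was 2481 CPM in E3 and 1337 CPM in E4 mice.

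Cytosolic and mitochondrial genes were paired where the symbols differ only by a final 2, which gave 12 amino acids. Of these, the cytosolic enzyme had the larger log2 fold change for 9, and both were above 0 for 6. Phenylalanine (Farsa -0.06, Farsb 0.09, Fars2 0.01), glutamate (Eprs 0.04, Ears2 0.02) and proline (Eprs, Pars2 -0.07) were not paired this way. The widest gap was that of leucine (Lars 0.05, Lars2 -0.50), followed by those of cysteine (Cars 0.26, Cars2 0.01), asparagine (Nars 0.15, Nars2 -0.06) and alanine (Aars 0.08, Aars2 -0.14). For isoleucine both genes stood at 0.17 after rounding. The 8 synthetases of the multisynthetase complex had a median of 0.06 and the 12 outside it 0.09.

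The isoform difference had the same sign in all 4 comparisons of E4 with E3 for many of the genes. These comparisons divide the mice on which the genes were chosen, so the counts describe that difference and do not test it. It was positive in all 4 for 12 of 20 cytosolic synthetases, 4 of 15 mitochondrial synthetases and 6 of the 9 stress genes tested in each. Of all genes 15% were positive in all 4 and 15% negative. The genes negative in all 4 were Hars, Aars2, Pars2, Tars2, Phgdh and Slc7a11. Atf4 ranged from 0.40 to 0.45 and Chac1 from 0.50 to 0.61 over the 4.

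**Figure D2:**
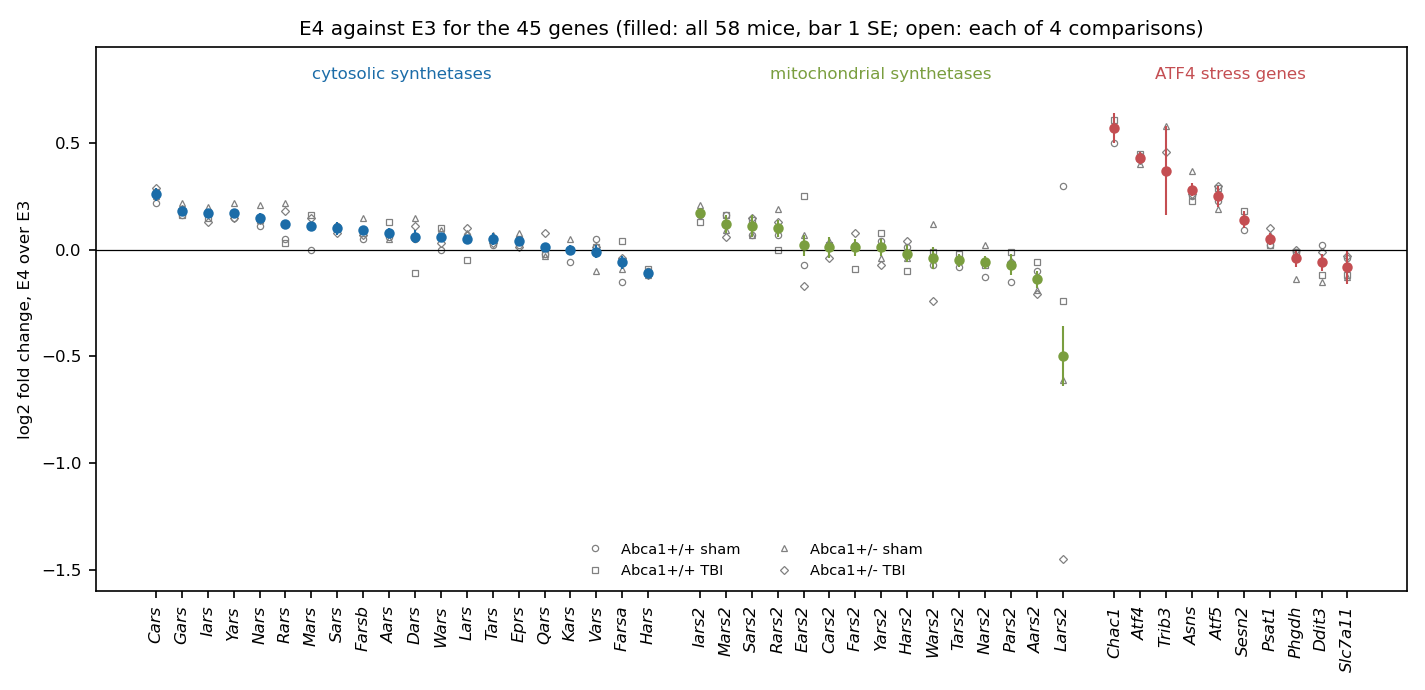
Log2 fold change of E4 over E3 (vertical axis) for each of the 45 genes, grouped by class and sorted within it. Filled points are the fit over all 58 mice with a bar of 1 standard error, and open points the 4 comparisons within Abca1 copies and injury; Chac1 and Atf4 are the highest of the stress genes and Lars2 spreads from 0.30 to -1.45.

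The 9 genes with TGATGNAA in the promoter had isoform log2 fold changes from -0.08 (Slc7a11) to 0.57 (Chac1), with a median of 0.17, and 8 of the 9 were above 0. The other 27 genes with a promoter entry ranged from -0.50 to 0.43 with a median of 0.02, and 18 were above 0. Atf4, whose protein would bind the core, was among those without it. The 2 sets differ in class: those with the core are cytosolic synthetases or stress genes, and all 13 mitochondrial synthetases with an entry lack it. The 9 genes without an entry, from Hars (-0.11) to Cars (0.26), are in neither set. As the genes were chosen on the isoform contrast, a link of the core to the isoform difference was not tested.

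Related lists are given beside them. Of 10 amino acid transporters 6 were positive in all 4 isoform comparisons and 0 negative, with a median of 0.09 over all mice. For 18 ER chaperones these counts were 6 and 0 with a median of 0.08, and for 14 genes of the core of the integrated stress response, the kinases and eIF2 factors, 5 and 2 with a median of 0.05. Oligodendrocyte markers differed too: their summed level was 2327 to 3985 CPM (median 2764) in E3 and 2690 to 4065 CPM (median 3181) in E4 mice, the 6 genes had a median of 0.17 on the log2 scale, and no marker was at 0. The 7 microglia markers had a median of 0.11, but 0 were positive and 0 negative in all 4 comparisons. For oligodendrocyte markers these counts were 4 and 0. The summed microglia level in sham mice had medians of 288 (Abca1+/+) and 282 CPM (Abca1+/-) in E3. In E4 sham mice they were 289 and 306 CPM. After TBI they were 513 and 506 CPM in E3 and 503 and 684 CPM in E4 mice. No microglia marker was at 0. The median log2 fold changes were 0.00 for neuron, 0.01 for astrocyte, -0.02 for endothelial and -0.06 for hippocampus markers. Whether the makeup of the tissue had a part in the isoform differences was not tested, and in tissue RNA fewer cells of a type and less RNA per cell cannot be told apart. Sars2, Atf5, Nars2, Ears2 and Cars lie on chromosome 7 with Apoe, Sars2 nearest at 9.05 Mb.

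Most of the 45 genes did not pass the injury test in any 1 genotype. Slc7a11 and Phgdh rose and Gars fell in all 4 genotypes, which share no mice. The share of all genes called in all 4 genotypes was not counted. Calls in all 4 are therefore not read as particular to Slc7a11, Phgdh and Gars. In E3/Abca1+/+ mice 4 of 44 genes tested rose and 6 fell, where 12.3% and 10.9% of all genes did. In E4/Abca1+/+ mice 2 of 44 rose and 2 fell (8.82% and 4.87% of all genes). With 1 Abca1 copy, 5 of 45 rose and 1 fell in E3 mice (13.4% and 10%), and 6 rose and 8 fell in E4 mice (17.7% and 16.4%). These shares are near those of all genes or below them. The median over the 45 genes was -0.02 to 0.02 in the 4 genotypes.

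Slc7a11 imports cystine in exchange for glutamate and so feeds glutathione synthesis. In E3/Abca1+/+ mice it had 49.1 to 89.7 CPM (median 80.1) in sham and 87.8 to 172 CPM (median 101) in TBI mice. In E4/Abca1+/+ mice it had 49.7 to 96.9 CPM (median 72.4) in sham and 74.2 to 125 CPM (median 103) in TBI mice. The TBI mice were mostly above the sham mice, 7 of 8 and 5 of 7 of them above every sham mouse. The Abca1+/- mice showed the same order, with sham and TBI medians of 79.4 and 107 CPM for E3 and 74.2 and 94.4 CPM for E4. Of these TBI mice 4 of 6 with E3 and 5 of 8 with E4 were above every sham mouse. In E4/Abca1+/- mice the level ran from 49.7 to 82.9 CPM after sham and from 66.6 to 162 CPM after TBI. The log2 fold changes in the 4 genotypes were 0.54 (standard error 0.12), 0.48 (0.13), 0.43 (0.12) and 0.52 (0.18), with edgeR adjusted p-values of 0.00303, 0.0171, 0.0129 and 0.0314. Slc7a11 remained called in all 4 under every alternative run.

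Phgdh and Psat1, consecutive enzymes of serine synthesis, rose as well. Phgdh rose from 22.1 ± 2.35 (SD, n = 8) to 27.0 ± 3.85 CPM (n = 8) in E3/Abca1+/+ mice and from 20.9 ± 1.33 (n = 7) to 28.4 ± 2.98 CPM (n = 8) in E4/Abca1+/- mice. Its log2 fold changes were 0.28, 0.28, 0.29 and 0.42 in the 4 genotypes (edgeR adjusted p = 0.0195, 0.0168, 0.00232 and 0.000124). With thinned libraries Phgdh was not called in the Abca1+/+ genotypes (adjusted p = 0.0602 and 0.0893, at 0.27 and 0.21). Psat1 rose in 3 genotypes, by 0.16, 0.25 and 0.27 on the log2 scale. In the other, E4/Abca1+/+, its value was 0.17 (adjusted p = 0.0559), past the threshold in 4 of the 6 alternatives there. In both Abca1+/- genotypes every TBI mouse was above every sham mouse for Phgdh, Psat1 and Atf5.

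Atf5 rose only in the Abca1+/- genotypes at the threshold used, by 0.31 (0.07) with E3 and 0.41 (0.06) with E4, and its values with 2 Abca1 copies were 0.12 and 0.19. The difference between the Abca1 genotypes did not pass the test (0.21, adjusted p = 1.00, edgeR). Over all genes, every TBI mouse was above every sham mouse for 4.36%, 3.76%, 6.57% and 7.36% in the 4 genotypes, and 0, 0, 3 and 4 of the 45 genes were. Qars was the fourth, at 62.9 ± 2.52 (n = 8) after TBI and 55.2 ± 1.94 CPM (n = 7) after sham in E4/Abca1+/- mice. Trib3 rose in E4/Abca1+/- mice from 0.219 to 0.835 CPM (median 0.611) to 0.458 to 1.37 CPM (median 1.06), a log2 fold change of 0.79 (0.25) at few counts. It was too low to be tested in the Abca1+/+ genotypes.

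Gars, the glycyl-tRNA synthetase, fell in every genotype, although the call was lost in 3 of them at lower depth. Its level was 127 to 148 CPM (median 133) in E3/Abca1+/+ sham and 103 to 131 CPM (median 123) in E3/Abca1+/+ TBI mice. With E4 and 1 Abca1 copy it was 146 to 159 CPM (median 153) after sham and 125 to 160 CPM (median 138) after TBI. Most TBI mice, 7 of 8 in both, lay below every sham mouse. It fell by 0.15, 0.14, 0.12 and 0.16 on the log2 scale in the 4 genotypes (edgeR adjusted p = 0.0333, 0.0423, 0.026 and 0.0139). With libraries thinned to the lowest total, Gars had adjusted p-values of 0.0847, 0.0699 and 0.113 in the first 3 genotypes (-0.13, -0.16 and -0.13).

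Atf4 fell from 49.2 ± 7.72 to 42.2 ± 3.36 CPM in E3/Abca1+/+ mice (n = 8 and 8), from 67.2 ± 4.09 to 57.8 ± 4.99 CPM in E4/Abca1+/+ mice (n = 7 and 7) and from 71.0 ± 3.62 to 64.0 ± 6.00 CPM in E4/Abca1+/- mice (n = 7 and 8). The log2 fold changes were -0.23, -0.22 and -0.18 (edgeR adjusted p = 0.0426, 0.0168 and 0.0206). In E3/Abca1+/- mice the value was -0.19 (adjusted p = 0.0531). The call in E3/Abca1+/+ mice was lost with thinned libraries (adjusted p = 0.0985) and with the filter of 10 counts in every mouse (0.0533), and that in E4/Abca1+/- mice in the fit over all 58 mice (0.0658). The lowest group median was 41.8 CPM, in injured E3/Abca1+/+ mice, and the highest 71.9 CPM, in E4/Abca1+/- sham mice.

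Fewer genotypes passed the test for the other synthetases. Nars and Yars fell in E3/Abca1+/+ mice (by 0.15 and 0.13) and in injured E4/Abca1+/- mice (by 0.13 and 0.14). Aars (-0.15) and Aars2 (-0.19) fell in E3/Abca1+/+ mice, and Iars (-0.11), Wars (-0.11), Wars2 (-0.22) and Asns (-0.21) in E4/Abca1+/- mice. Dars, the aspartyl-tRNA synthetase of the complex, rose instead, by 0.20 in E3/Abca1+/+ and 0.16 in E3/Abca1+/- mice, as did Qars (0.16) in E4/Abca1+/- mice. Of the 12 cytosolic synthetases outside the complex 4, 1, 1 and 4 fell and 0 rose in the 4 genotypes. Of the 8 in the complex 0, 0, 0 and 1 fell and 1, 0, 1 and 1 rose. Of all genes 10.9%, 4.87%, 10% and 16.4% fell and 12.3%, 8.82%, 13.4% and 17.7% rose. With thinned libraries the falls outside the complex remained only for Gars and Wars in E4/Abca1+/- mice. A difference between the complex and the rest was not tested.

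**Figure D3:**
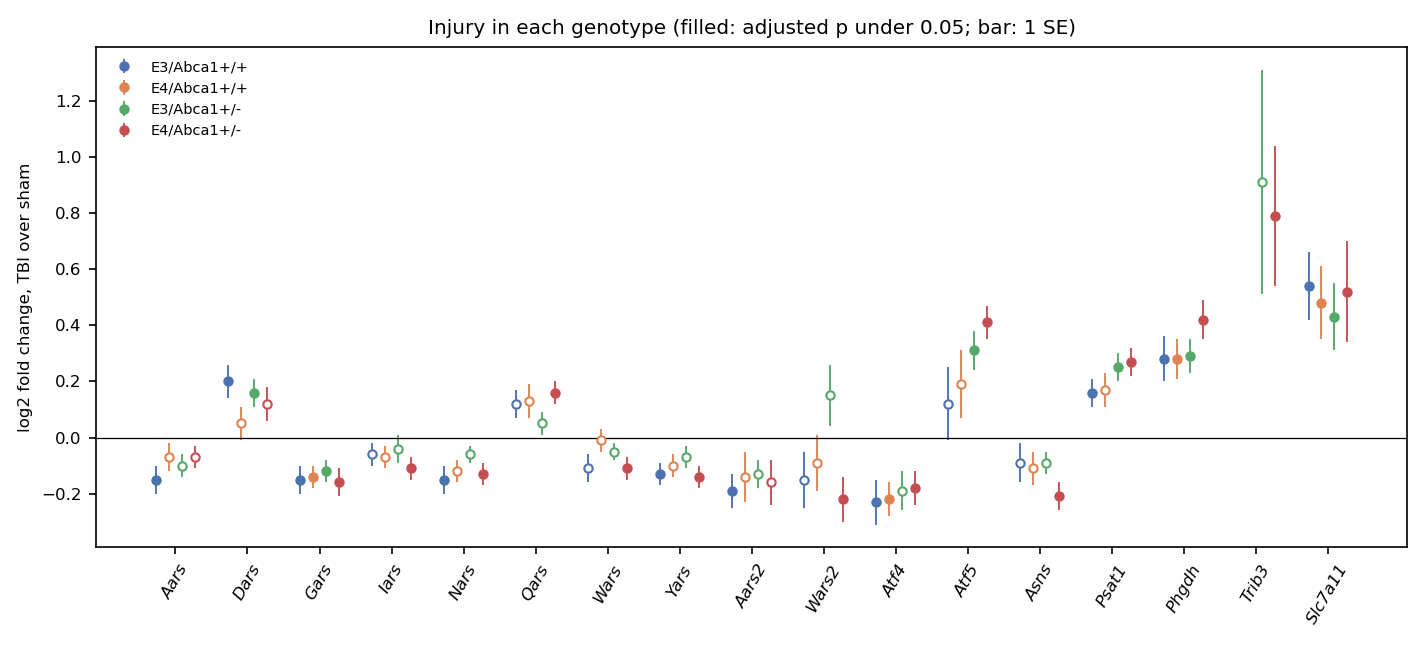
Log2 fold change of TBI over sham (vertical axis) in each genotype, for the genes past the adjusted threshold of 0.05 in at least 1 genotype. Filled points passed the edgeR test, open points did not, and bars are 1 standard error; Slc7a11, Phgdh and Gars are filled in all 4 genotypes.

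When every library was thinned to the lowest total, the calls that remained in the 4 genotypes were 4 of 10, 2 of 4, 4 of 6 and 9 of 14. Besides those of Gars, Phgdh and Atf4, the calls lost were those of Aars, Nars and Yars in E3/Abca1+/+ mice, Dars in E3/Abca1+/- mice, and Iars, Nars, Yars and Wars2 in E4/Abca1+/- mice, where Trib3 was then too low to be tested. Cell type markers moved in the same comparisons. The summed level of 8 neuron markers was 8227 to 9281 CPM in sham and 5952 to 8353 CPM in TBI mice, that of 7 microglia markers 253 to 362 and 438 to 838 CPM, and that of 7 astrocyte markers 5394 to 6957 and 6764 to 10977 CPM. All 7 microglia markers rose in every genotype and 3 to 7 of the 8 neuron markers fell. Their part in the injury differences of the 45 genes was not tested.

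**Figure D4:**
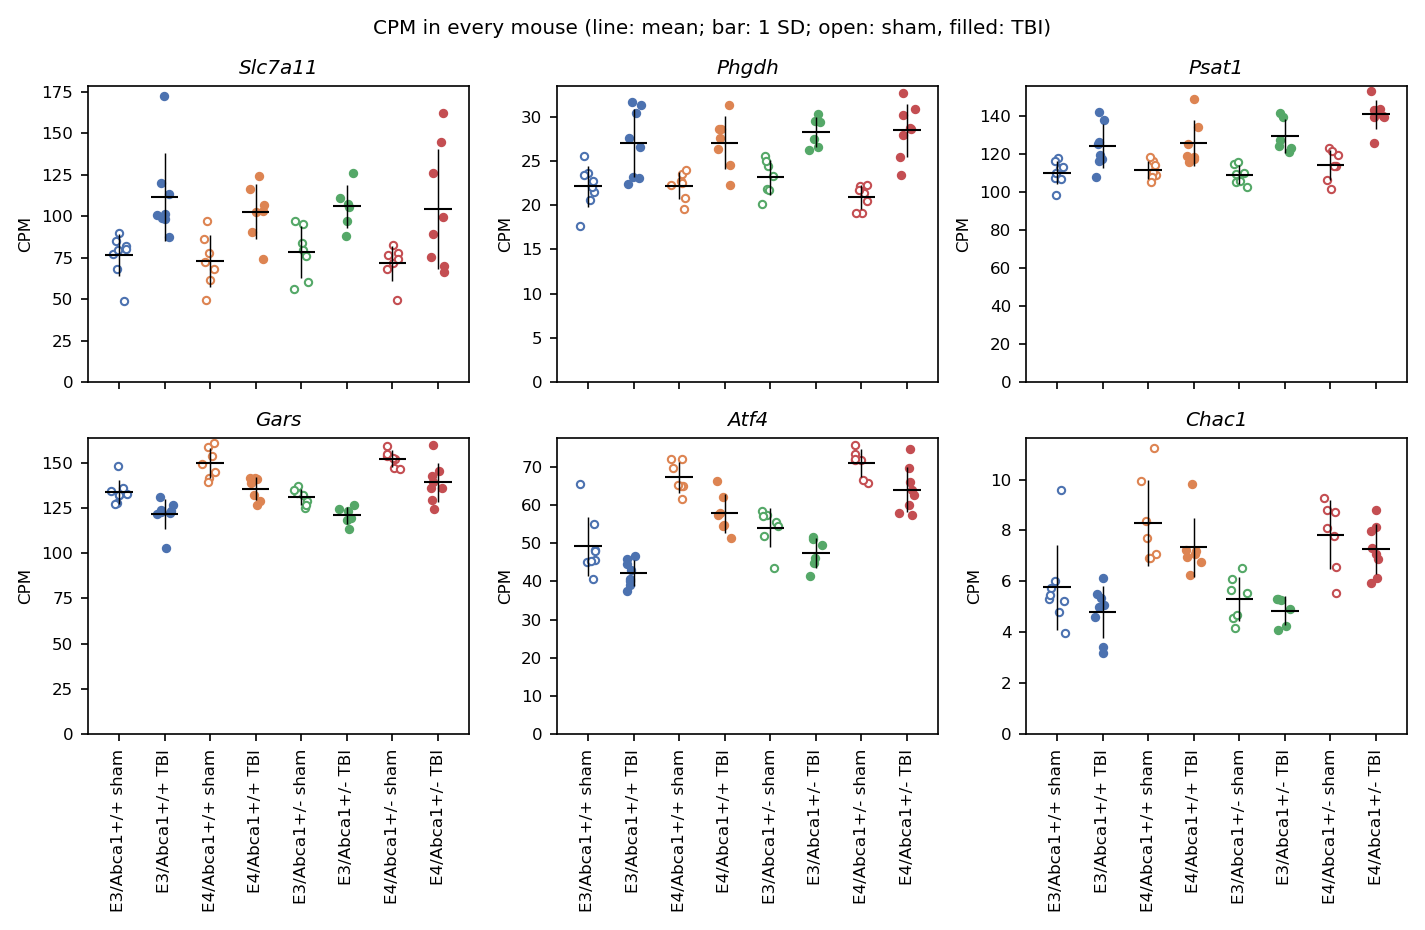
CPM (vertical axis, from 0) of 6 genes in every mouse of the 8 groups, open points sham and filled points TBI. The horizontal line is the group mean and the bar 1 SD; the group means of Slc7a11, Phgdh and Psat1 are higher after TBI in each genotype, and Atf4 and Chac1 are higher in the E4 groups (medians 65.2 and 7.24 CPM) than in the E3 groups (46.0 and 5.25 CPM).

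Related lists were tested in the same fits, in which 12.3%, 8.82%, 13.4% and 17.7% of all genes rose and 10.9%, 4.87%, 10% and 16.4% fell in the 4 genotypes. Of 10 amino acid transporters 3 rose in each genotype: Slc1a5, which carries glutamine (0.72 to 0.85 on the log2 scale over the 4 genotypes), Slc3a2, the heavy chain that pairs with Slc7a11 (0.16 to 0.23), and Slc1a4 (0.14 to 0.19). Slc7a1, a carrier of arginine and lysine, fell in the 2 Abca1+/- genotypes (-0.24 and -0.32). Of 8 serine and one-carbon enzymes 3, 1, 4 and 3 rose and 0 fell. Aldh1l2, a mitochondrial folate enzyme, rose by 0.88, 0.83, 1.13 and 1.15, and Shmt2 in 3 of the 4.

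Of 17 other ATF4 targets 3, 3, 6 and 4 rose and 2, 2, 1 and 2 fell. Atf3, a stress factor induced by injury of neurons, rose by 2.22, 1.99, 2.58 and 2.76. Nupr1 rose in 3 genotypes, by 0.76 to 1.11, and Jdp2 fell in all 4 (-0.40 to -0.51). Of the 14 core genes Eif2ak2, the interferon-induced kinase PKR, rose in all 4 (0.72 to 1.08), and the only other call was Eif2ak1, which fell in E4/Abca1+/- mice (-0.14). Of 18 ER chaperones and degradation factors 1 rose in each genotype, Edem1 (0.33 to 0.65), and Sel1l fell in E4/Abca1+/- mice (-0.15). Among 12 synthetase partners the single call was Tarsl2, which encodes a second threonyl-tRNA synthetase of the cytosol and fell in E4/Abca1+/- mice (-0.22).

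None of the 45 genes passed edgeR's test between Abca1+/- and Abca1+/+ mice of the same isoform and injury state. Over all genes 2.51% differed in E3 sham, 0.99% in E4 sham, 0.18% in E3 TBI and 1.47% in E4 TBI mice. At an unadjusted p under 0.05 there were 2, 6, 3 and 6 of the 45 genes. The share of all genes at the unadjusted threshold is not given here, so these counts are not read as particular to the 45 genes. DESeq2 called 0 in each. Over all groups 6 of 45 were higher in Abca1+/- mice and 0 lower, where 17.9% of all genes differed in either direction. That share is not split by direction here, so the single direction is not read as particular to these genes. The 6 were Cars2 (0.14, standard error 0.05), Fars2 (0.14, 0.04), Atf4 (0.13, 0.03), Ddit3 (0.12, 0.04), Sars (0.08, 0.03) and Yars (0.07, 0.02). Atf4 was at 59.7 ± 10.1 CPM in Abca1+/- (n = 28) and 53.5 ± 10.8 CPM in Abca1+/+ mice (n = 30). With libraries thinned to the lowest total, 3 of the 6 remained. Rars2, Pars2, Yars and Sesn2 lie on chromosome 4 with Abca1, Rars2 nearest at 18.46 Mb, and Ddit3 and Mars overlap by 71 bases on chromosome 10, where reads of one may count for the other.

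No interaction was past the threshold for any of the 45 genes in edgeR's test. The isoform by injury term was called for 1 of 15171 genes (0.00659%), the isoform by Abca1 term for 10 (0.0659%) and the Abca1 by injury term for 0 (0%). At an unadjusted p under 0.05 there were 3, 3 and 1 of the 45 genes. The share of all genes at that threshold is again not given, so nothing is read from these counts. DESeq2 called 0, 1 and 0 of the 45 genes. The single DESeq2 call was Lars2 in the isoform by Abca1 term, at -1.06 (adjusted p = 0.0399, and 0.0871 in edgeR). Injury differences of the named genes were therefore not shown to differ between isoforms or Abca1 genotypes.

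Sex was associated with small differences in 5 of the 45 genes, where 10.1% of all genes differed. Rars2 was at 16.5 ± 1.67 CPM in female (n = 28) and 14.8 ± 1.35 CPM in male mice (n = 30), a log2 fold change of 0.15 (standard error 0.03, edgeR adjusted p = 0.00453). Dars (0.09) and Psat1 (0.08) were also higher in females, and Aars2 (-0.12) and Aars (-0.06) were lower. Both sexes overlapped for each of the 5.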

How the data were processed

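The authors deposited 1 table of read counts per gene, whole numbers without normalization, for 58 mice and 15171 genes. The submitters' processing notes name Subread 1.5.0, featureCounts, edgeR and the build mm10. Whether strand was used in counting is not given in the sources used here. Blank lines (2) were removed, and 23 symbols turned into dates were named by identifier. Labels give no cultures or litters, so each mouse is 1 replicate, and 0 of 183 pairs within a group were identical. Totals ran from 4421308 to 37877346 counts, and counting error is widest for genes with few counts.

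Counts were scaled with TMM factors (0.954 to 1.04), filtered with filterByExpr and compared with the quasi-likelihood test of edgeR 4.0.16 in R 4.3.3, using only the mice of each comparison. The fits over all groups, for interactions and for sex used 58 mice. P-values were adjusted by Benjamini-Hochberg over all genes tested (14041 to 15171), with the threshold at 0.05. Standard errors are the log2 fold change divided by the root of F. The alternatives were DESeq2 1.42.0, its size factors, a filter of 10 counts in every mouse, and sex as a covariate. Further alternatives were 1 fit over all mice, thinned libraries and leaving out the 2 mice picked by marker score. Gene positions, transcript lengths and promoters came from GRCm38.p6 (RefSeq and GENCODE) and were searched with Python 3.11.15. The genes and lists were chosen with earlier results of these data known. Every one of the 45 genes is named, with all that passed in a comparison and up to 3 per related list and direction, and per-mouse ranges are given for up to 12.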

Additional observations from a re-analysis of the deposited data

Results flagged for a closer look

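For the 12 genes described by mouse, 96 groups were examined for a mouse far from the others, and chance gives about 1 such group in 20. It was seen in 12 groups, by Dixon's gap test at the 95% level. Gars had a high mouse at 148 CPM (next 136) in E3/Abca1+/+ sham and a low mouse at 103 CPM (next 122) in E3/Abca1+/+ TBI mice. Slc7a11 had a mouse at 172 CPM (next 120) in E3/Abca1+/+ TBI mice. Cars had a mouse at 50.0 CPM (next 39.1) in E3/Abca1+/+ sham and at 47.3 CPM (next 42.8) in E4/Abca1+/- sham mice. Yars had low mice at 80.5 CPM (next 89.2) in E3/Abca1+/+ TBI and 86.4 CPM (next 94.8) in E3/Abca1+/- TBI mice. Lars2 had a mouse at 1890 CPM in E4/Abca1+/- sham mice. Iars2 had mice at 67.7 CPM (next 59.5) in E3/Abca1+/- sham and 73.5 CPM (next 66.9) in E4/Abca1+/- TBI mice. Chac1 had mice at 9.58 CPM (next 6.03) in E3/Abca1+/+ sham and 9.81 CPM (next 7.24) in E4/Abca1+/+ TBI mice. The E3/Abca1+/+ sham mice high in Gars and in Chac1 were 1 animal, replicate 8. The E3/Abca1+/+ TBI mice low in Gars and high in Slc7a11 were also 1 animal, replicate 8 of that group. Neither was among the 2 mice left out in an alternative.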

How the results depend on the processing

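Each call of a gene in a tested comparison was recomputed under up to 7 alternatives, all in the direction first found, and 244 of these values passed the threshold again while 33 did not. Thinning every library to the lowest total lost most (19), and DESeq2's test and sex as a covariate lost 0. With thinned libraries the number of the 45 genes called after TBI was 4 rather than 10 in E3/Abca1+/+, 2 rather than 4 in E4/Abca1+/+ and 9 rather than 14 in E4/Abca1+/- mice, that for Abca1 copies over all groups was 3 rather than 6, and that for sex 3 rather than 5; thinning leaves fewer counts. In a single fit over 58 mice, 7 rather than 4 genes were called after TBI in E4/Abca1+/+ mice (Nars, Psat1 and Qars were added), and 1 rather than 0 (Psat1) between Abca1 genotypes in E4 TBI mice. DESeq2 called 1 rather than 0 (Lars2) in the isoform by Abca1 term. The cause of these shifts was not tested. Without the 2 mice picked by marker score, Wars (adjusted p = 0.0515, edgeR) and Wars2 (0.0769) were no longer called after TBI in E4/Abca1+/- mice. Ddit3 (adjusted p = 0.0545, edgeR) was then no longer called for Abca1 copies. DESeq2's size factors moved the median over all genes by at most 0.01 on the log2 scale. No paired analysis was possible because the labels give no replicate numbers shared between groups.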
